A study of Rattus norvegicus with 17 samples.

Results

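Immediate early genes are transcribed within minutes of synaptic activity, with no need for newly made protein, and 10 of them that are used as markers of recently active neurons were followed through the hippocampus of adolescent rats. They were chosen by name, with earlier results of these data known: *Fos*, *Fosb*, *Junb*, *Egr1*, *Egr2*, *Egr3*, *Egr4*, *Arc*, *Npas4* and *Nr4a1*. All 10 are among the 34322 genes of the count table, and all 10 passed the filter on low counts. No member passed the test between the diet groups of the dams. By the SD of the log2 level between littermates, 9 of the 10 varied more than at least 92% of genes did, although *Fosb* lay near the trend for genes of its abundance, and their levels went together from animal to animal.

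In active neurons, calcium entry through NMDA receptors and voltage-gated channels signals to kinases that phosphorylate the transcription factors CREB and SRF/ELK1 already sitting at these genes. The products then act in several roles. *Fos*, *Fosb* and *Junb* encode subunits of the AP-1 transcription factor, and the 4 *Egr* genes and *Nr4a1* encode zinc finger and nuclear receptor transcription factors. *Npas4* encodes a transcription factor that responds to calcium entry and shapes inhibitory synapses, and *Arc* encodes a protein that travels to active synapses and removes AMPA receptors. In the hippocampus these transcripts are widely used as a record of recent handling, novelty or learning.

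The libraries came from Long-Evans rats of 36 to 38 days of age whose dams received, from gestational day 0 to 20, a liquid diet with 6.7% ethanol (ET, 5 pups), the same kind of liquid diet without ethanol in matched amounts (PF, 6 pups) or chow ad libitum (AD, 6 pups). ET held 3 males and 2 females, and PF and AD 3 of each. Every diet group was drawn from a single litter, so diet and litter cannot be told apart. The pups were decapitated without anaesthesia soon after leaving the home cage, and 1 ET, 2 PF and 1 AD library came from the right hippocampus while the others came from the left.

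Between 10853947 and 17498392 fragments were counted per library (median 13538433). Sex-linked genes matched the label in 15 libraries and went against it in AD replicates 1 and 2, so AD was left out of the comparison of the sexes. ET replicate 2, PF animal 11f6 and AD replicate 4, which the study left out of its final analysis, stood apart by genes of the choroid plexus, the tissue that secretes cerebrospinal fluid: the summed level of 10 such genes was 7460, 8510 and 9430 CPM (counts scaled to a common library size), against a median of 143 CPM over all 17. The main markers of hippocampal neurons were found in every library (*Wfs1* for CA1 at no less than 181 CPM, *Grik4* for CA3 at 48.2 CPM and *Prox1* for dentate granule cells at 8.22 CPM, with a highest value of 51.0 CPM). *Tdo2* and *Lct* of the dentate list did not exceed 0.0552 and 0.406 CPM. *Iyd* of the CA3 list did not exceed 0.155 CPM, nor *Spink8* of the CA1 list 0.452 CPM. Sums over these lists given below therefore rest on their other genes. In whole tissue, fewer active cells and less RNA per cell cannot be told apart.

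Some of these promoters carry letters through which CREB and SRF are known to act. Those of *Egr2*, *Nr4a1* and *Egr4* are shown to place these letters, and that of *Npas4* for contrast, since it holds none of them. RefSeq sequence on the GRCr8 build, which is not the mRatBN7.2 build used for counting, gave the 250 bases before the transcription start for 7 of the 10 members, *Fos*, *Arc* and *Egr3* having no entry. Both strands were searched except where said, and capitals mark the core of the cyclic AMP response element, TGACG or CGTCA on the other strand, and the CArG box that SRF binds.
Egr2, chr20:21054442-21054691, minus strand: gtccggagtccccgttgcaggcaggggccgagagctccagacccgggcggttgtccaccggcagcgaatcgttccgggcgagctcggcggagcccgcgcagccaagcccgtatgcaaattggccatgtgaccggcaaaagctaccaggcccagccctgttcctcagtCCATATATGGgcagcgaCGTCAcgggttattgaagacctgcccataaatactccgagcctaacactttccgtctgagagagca
Nr4a1, chr7:134259888-134260137, plus strand: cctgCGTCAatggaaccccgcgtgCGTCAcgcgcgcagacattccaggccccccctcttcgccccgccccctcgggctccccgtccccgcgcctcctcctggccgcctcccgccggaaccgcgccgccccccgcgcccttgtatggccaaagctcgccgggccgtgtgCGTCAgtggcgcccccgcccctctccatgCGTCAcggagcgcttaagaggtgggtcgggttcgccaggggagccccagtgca
Egr4, chr4:119607818-119608067, minus strand: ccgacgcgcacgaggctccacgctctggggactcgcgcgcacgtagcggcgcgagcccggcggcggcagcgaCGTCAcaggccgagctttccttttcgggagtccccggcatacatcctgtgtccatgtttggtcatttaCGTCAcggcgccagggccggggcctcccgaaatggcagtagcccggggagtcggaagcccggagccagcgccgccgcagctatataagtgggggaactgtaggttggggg
Npas4, chr1:211716103-211716352, minus strand: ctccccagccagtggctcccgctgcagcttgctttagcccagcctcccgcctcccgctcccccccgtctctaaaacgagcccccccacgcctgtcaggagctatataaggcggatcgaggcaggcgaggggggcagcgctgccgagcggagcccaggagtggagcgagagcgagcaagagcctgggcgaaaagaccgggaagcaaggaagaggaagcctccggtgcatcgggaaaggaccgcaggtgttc

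The TGACG core was present in 5 of the 7 windows (*Egr1*, *Egr2*, *Egr4*, *Junb* and *Nr4a1*) and in 18.2% of 33469 windows of the same length before other starts. *Nr4a1* held 4 copies, the nearest 53 to 49 bases before the start, and *Egr4* held 2. A CArG box was found in *Egr1* and *Egr2*, against 1.5% of all windows. In *Egr2* it lay 83 to 74 bases before the start with the TGACG core 66 to 62 bases before it, and *Egr1* held a CArG box and a core at the same distances. The whole element TGACGTCA, in 1.59% of all windows, was in none of the 7, and neither was the AP-1 site TGACTCA or TGAGTCA, in 4.05%. An EGR site, GCGGGGGCG or GCGTGGGCG, in 2.85% of all windows, was found in *Nr4a1*, and TATAAA, searched on the strand of the gene alone and in 8.06%, in *Junb*. The *Npas4* window held none of these letters, which says nothing of sites elsewhere.

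Levels are given as normalized counts, that is, counts scaled by edgeR's TMM factors to the mean library size, and they compare libraries within a gene but not genes with each other, since transcript length was not used. Among the AP-1 subunits, *Fos* stood at 80.1, 49.2, 74.2, 44.9 and 189 in ET replicates 1 to 5. In PF its lowest value was 35.2, its median 70.2 and its highest 151, and in AD these were 42.9, 113 and 165. The 3 groups covered nearly the same range, and 1 ET animal, replicate 5, was the highest of all 17.

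*Fosb*, whose product has a long-lived truncated form known from chronic stimulation, was at 42.9, 21.0, 33.6, 30.7 and 43.2 in ET. It ran from 25.9 through a median of 37.4 to 58.7 in PF, and from 42.4 through 46.5 to 85.0 in AD. The ET and AD ranges met only at their edges, since 2 ET animals at 42.9 and 43.2 reached the lowest AD values. *Junb*, a partner of *Fos*, averaged 223 ± 103 (SD, n = 5) in ET, 232 ± 67.2 (n = 6) in PF and 293 ± 87.1 (n = 6) in AD.

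Among the *Egr* genes, *Egr1*, which is tied to the late phase of long-term potentiation, averaged 616 ± 170 in ET, 658 ± 181 in PF and 745 ± 181 in AD. *Egr2*, which is needed for myelination by Schwann cells, was at 18.4, 14.5, 26.3, 20.7 and 48.1 in ET. It ran from 26.9 through a median of 36.5 to 127 in PF and from 12.9 through 34.1 to 65.5 in AD. For *Egr2*, 4 of the 5 ET animals lay below all PF animals, but ET replicate 5 lay above 5 of the 6.

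*Egr3*, a factor needed for muscle spindles and for memory, was the steadiest member. Its ET values were 1140, 996, 1200, 1190 and 1170, its PF values ran from 922 through a median of 1010 to 1380, and its AD values from 1060 through 1210 to 1390. In PF all animals but replicate 6 lay at or below 1080, under all AD animals except replicate 4. *Egr4* averaged 70.7 ± 27.4 in ET, 72.9 ± 30.1 in PF and 88.5 ± 20.7 in AD.

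*Npas4* was at 68.4, 36.3, 89.7, 31.6 and 243 in ET. It ran from 34.2 through a median of 68.5 to 117 in PF and from 33.3 through 119 to 196 in AD. Its highest ET animal was 7.67 times its lowest, and animals between 31.6 and 36.3 were found in every diet group. *Nr4a1*, an orphan nuclear receptor, averaged 416 ± 83.2 in ET, 505 ± 209 in PF and 486 ± 82.1 in AD.

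*Arc*, the only member that encodes no transcription factor, was at 722, 776, 1130, 899 and 1410 in ET. It ran from 827 through a median of 877 to 2060 in PF and from 716 through 1250 to 1990 in AD. Of the PF animals, 5 lay close together and replicate 6 stood far above them. In the plot of the members by diet group the same few animals lie at the top of panel after panel.

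**Figure D1:**
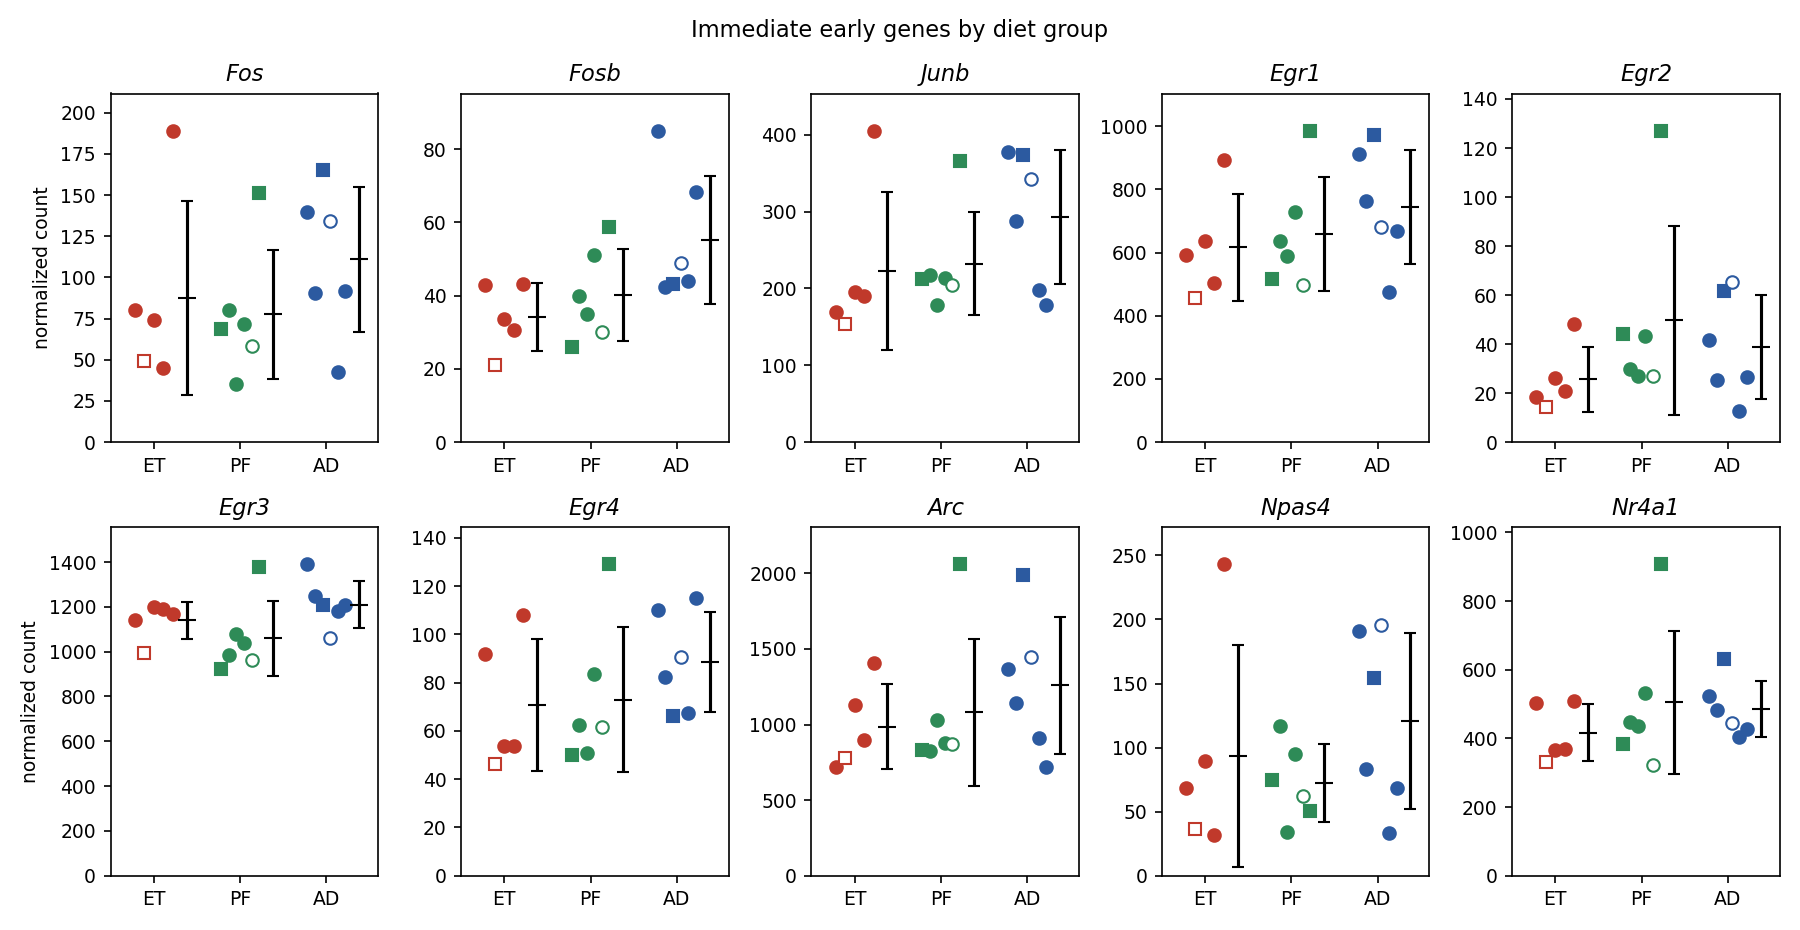
Normalized counts (vertical axes, linear and starting at 0) of the 10 immediate early genes in ET (5 animals), PF (6) and AD (6); each point is an animal, squares are right hippocampi, open symbols are the 3 libraries rich in choroid plexus transcripts, and bars give the mean ± SD. The 3 groups overlap for every gene, and 1 ET and 1 PF animal lie far above their littermates for several genes, such as *Fos* at 189 in ET and *Arc* at 2060 in PF.

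The comparison of ET with PF sets the ethanol diet beside a matched liquid diet. Each group was a single litter, so a difference could belong to diet or to litter. No member passed edgeR's quasi-likelihood test at an adjusted p-value below 0.05, where 5.46% of the 16088 genes tested passed, and with all animals no member was below 0.05 before adjustment, where 14.4% of genes were. By DESeq2, too, no member passed in this or the other comparisons. The log2 differences, ET over PF, were positive for 3 members and negative for 7, with a median of -0.07, beside a median of 0.01 over all genes. The largest was that of *Egr2*, at -0.93 ± 0.458 (SE), with an unadjusted edgeR p-value of 0.0643 and an adjusted one of 0.4. *Npas4* was at 0.38 ± 0.486 and *Fos* at 0.18 ± 0.404, and both turned negative, to -0.34 and -0.31, without ET replicate 5. Without single animals *Egr2* ran from -1.29 (ET replicate 5 left out, unadjusted edgeR p-value 0.0201, adjusted 0.23) to -0.40 (PF replicate 6 left out), and in left hippocampi only it was at -0.16. Its unadjusted p-value also lay below 0.05 without PF replicate 2, PF replicate 3 or PF animal 11f6, with sex as a covariate, under the replicate block and by DESeq2. In these fits 11.2% to 14% of genes lay below 0.05. The narrowest interval was that of *Egr3*, whose difference of 0.10 had a 95% interval from -0.10 to 0.31. In left hippocampi only *Egr3* was at 0.21 (edgeR p-value 0.0062, adjusted 0.11), and without PF replicate 6 at 0.19 (p-value 0.0125, adjusted 0.14), beside 12.5% and 16% of genes below 0.05 in those fits. For *Npas4* the interval ran from -0.67 to 1.44, so that sizeable differences of either sign were not detectable with these animals.

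Against the chow-fed group, all 10 members were lower in ET on average, with log2 differences from -0.68 to -0.10 and a median of -0.34, beside 0.0016 over all genes. None passed after adjustment, where 0.0382% of 15700 genes passed. With all animals, *Fosb* was the only member below 0.05 before adjustment (log2 difference -0.68 ± 0.237, edgeR p-value 0.0143, adjusted 0.936), beside 4.57% of all genes. That count rested on ET replicate 5. Without it 7 members were below 0.05 before adjustment (*Fos*, *Fosb*, *Junb*, *Egr1*, *Egr2*, *Egr4* and *Npas4*), beside 5% of genes in that fit, and none passed after adjustment. *Fos* moved from -0.33 to -0.83 and *Junb* to -0.73 (unadjusted edgeR p-value 0.00599, adjusted 0.83). Without any other single animal the count stayed at 1. With all animals *Egr2* was at -0.58 ± 0.411, *Junb* at -0.40 ± 0.276 and *Arc* at -0.36 ± 0.248. *Npas4* was at -0.36 ± 0.553 and reached -1.09 without ET replicate 5. Other fits gave smaller differences. *Egr2* was at -0.38 without AD replicate 4 and -0.24 without the 3 libraries rich in choroid plexus transcripts. *Arc* was at -0.18 without AD replicate 3. In left hippocampi only *Arc* was at -0.11, *Egr1* at -0.10 and *Fos* at -0.05. Without both AD libraries that go against their sex label *Fosb* was at -0.57. Since the members moved together between animals, a common sign over the 10 is not 10 separate observations.

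PF was compared with the same AD animals, so these values share their controls with the preceding ones. In PF, 8 members were lower and 2 higher than in AD, with a median log2 difference of -0.26, beside -0.01 over all genes. None passed after adjustment, where 6.19% of 15902 genes passed, and none was below 0.05 before it, where 17.3% of genes were. *Npas4* was at -0.74 ± 0.395 (edgeR p-value 0.0817, adjusted 0.368), *Fos* at -0.52 ± 0.331, *Fosb* at -0.46 ± 0.23 and *Egr3* at -0.20 ± 0.0922 (p-value 0.0512, adjusted 0.292). *Egr2* and *Nr4a1* were higher in PF, at 0.35 ± 0.446 and 0.05 ± 0.212. In left hippocampi only, 3 members (*Fosb*, *Egr3* and *Egr4*) were below 0.05 before adjustment, beside 19.2% of genes in that fit. Without PF replicate 6 all 10 members were lower in PF, 6 were below 0.05 before adjustment, beside 20.5% of genes, and *Egr3* passed, at -0.28 with an adjusted edgeR p-value of 0.016. This is the 1 fit of those tried in which a member passed, and the animal left out had the highest PF level of 9 of the 10 members.

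For none of the 10 members did any pair of diet groups separate without overlap. Over all 16280 genes tested in the 3 groups, 5.27% separated between ET and PF, 0.62% between ET and AD and 4.91% between PF and AD.

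**Figure D2:**
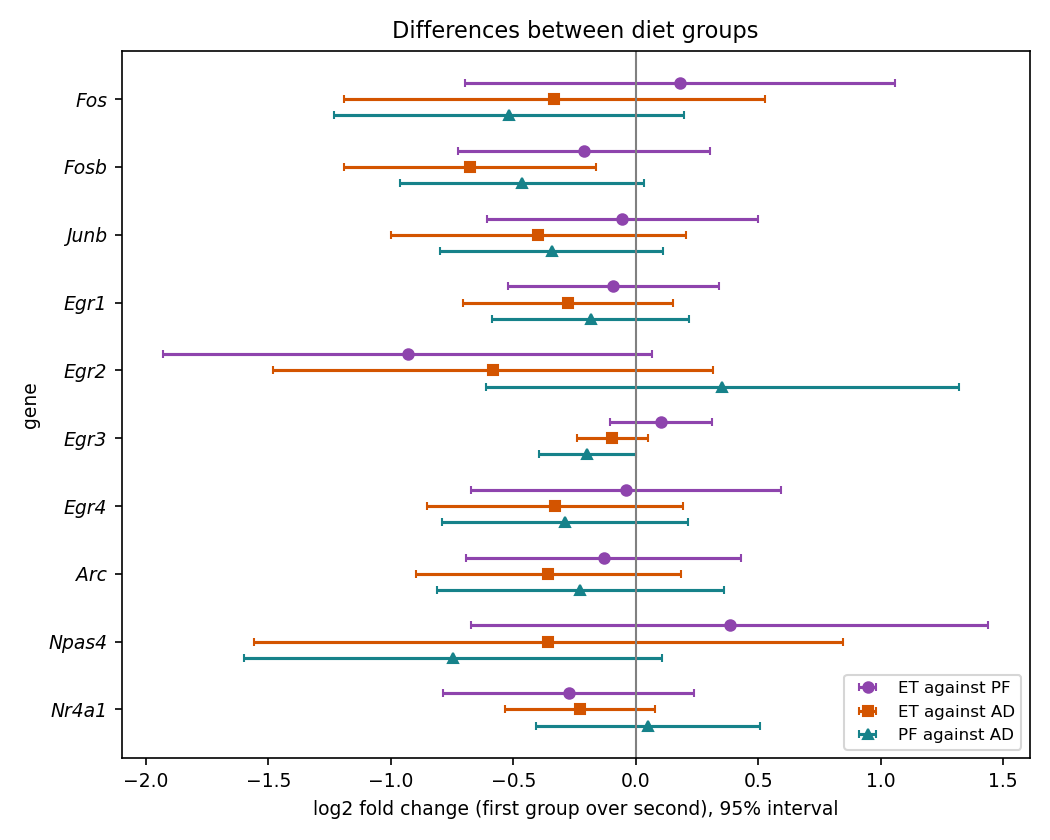
Log2 fold change (horizontal axis, first group over second) of each immediate early gene in the 3 diet comparisons, with points for the edgeR estimate and bars for its 95% interval. All 10 ET against AD estimates lie left of 0, and the *Fosb* interval in that comparison, from -1.19 to -0.16, is the only one to leave 0 out.

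Sex was compared within ET and PF, with diet in the model. All 10 members were higher in males on average, as were 7709 of all 16088 genes. None was below 0.05 before or after adjustment, beside 1.90% and 0.0497% of genes. Their log2 differences ran from 0.06 to 0.70, with a median of 0.27, beside -0.005 over all genes. *Egr2* had the largest, at 0.70 ± 0.427 (edgeR p-value 0.128, adjusted 1), and stood at 0.18 without PF replicate 6, a male. Without the 3 libraries rich in choroid plexus transcripts, *Junb* and *Egr2* were below 0.05 before adjustment, beside 1.87% of genes. *Egr3* had the smallest difference with all animals, at 0.06 ± 0.0987. Of these males, ET replicate 5 and PF replicate 6 lay above the median of the 17 libraries for 9 members each. PF animal 11f5 did so for 7, ET replicate 4 for 1, and ET replicate 2 and PF animal 11f6 for 0. Since the members moved together between animals, their common sign is not 10 separate observations. The test of whether the diet difference itself differed between the sexes called no member and no gene (0% of 16705 genes), and 1.53% of genes but no member were below 0.05 before adjustment. Its largest member was *Egr4*, at -0.83 ± 0.539, which ran from -1.31 without ET replicate 5 to -0.40 without ET replicate 1. Without ET replicate 5, *Fosb* and *Egr4* were below 0.05 before adjustment, beside 2.47% of genes, and without PF animal 11f6 *Fosb* and *Nr4a1*, beside 2.14%.

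Between right and left hippocampi, over all 17 libraries with diet in the model, 7 members were higher on the right and 3 lower. None was below 0.05, beside 4.90% of 16401 genes before adjustment and 0% after it. *Egr2* was at 0.82 ± 0.398 (edgeR p-value 0.0558, adjusted 1) and *Arc* at 0.48 ± 0.241 (p-value 0.0662, adjusted 1). Without PF replicate 6, a right hippocampus, these were 0.30 and 0.17, and without ET replicate 2, a right hippocampus low for all members, 1.20 and 0.73. In that last fit *Egr2*, *Arc* and *Nr4a1* were below 0.05 before adjustment, beside 2.25% of genes, as they were without PF replicate 1, beside 6.58%, and without the 3 libraries rich in choroid plexus transcripts, beside 1.78%. Without ET replicate 5 *Egr2* and *Arc* were below it, beside 4.48%, and without PF replicate 6 *Fosb* and *Egr4*, beside 3.31%. With all animals *Npas4*, *Fosb* and *Egr4* were lower on the right, at -0.30, -0.26 and -0.08.

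Within a litter the members were among the more variable genes. The SD of the log2 level around the diet-group means was 0.14 for the median gene, and it was 0.81 for *Npas4*, 0.63 for *Fos* and 0.60 for *Egr2*, more than for 99.3%, 98.3% and 98.2% of genes. *Arc* followed at 0.48, *Junb* at 0.44, *Egr4* at 0.40, *Egr1* and *Nr4a1* at 0.36 and *Fosb* at 0.33, which were larger than for 92% to 96.7% of genes. *Egr3* was the exception, at 0.16, larger than for 58.3%. Neighbours in this order were not tested against each other.

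For scale, counting error alone, at the mean level and over the 3 technical replicates averaged, would give *Npas4* a coefficient of variation of 5.87%, and its coefficient within diet groups was 67.2%. For *Arc* these were 1.72% and 37.9%, for *Fos* 5.99% and 51.3%, and for *Egr2*, counted between 11.7 and 127 times per library, 9.26% and 70.2%. For *Egr3* they were 1.71% and 11.1%. In edgeR's dispersion estimates, *Arc* and *Npas4* stood at 8.65 and 8.59 times the trend for genes of their abundance, *Fos* at 5.23, *Egr2* at 4.84, *Junb* at 3.48, *Egr1* at 3.47, *Nr4a1* at 2.91 and *Egr4* at 2.09 times. *Fosb*, at 1.26 times and above 85.6% of genes, and *Egr3*, at 0.976 times, lay near the trend.

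The animals with high levels were largely shared. AD replicate 1 lay above the median of the 17 libraries for all 10 members, and ET replicate 5, PF replicate 6 and AD replicate 3 for 9 each. At the other end, ET replicate 2 and PF animal 11f6 lay at or below the median for all 10, ET replicate 2 was among the lowest 5 for all 10, and ET replicate 4 among the lowest 5 for 8. High and low animals were present in each litter.

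**Figure D3:**
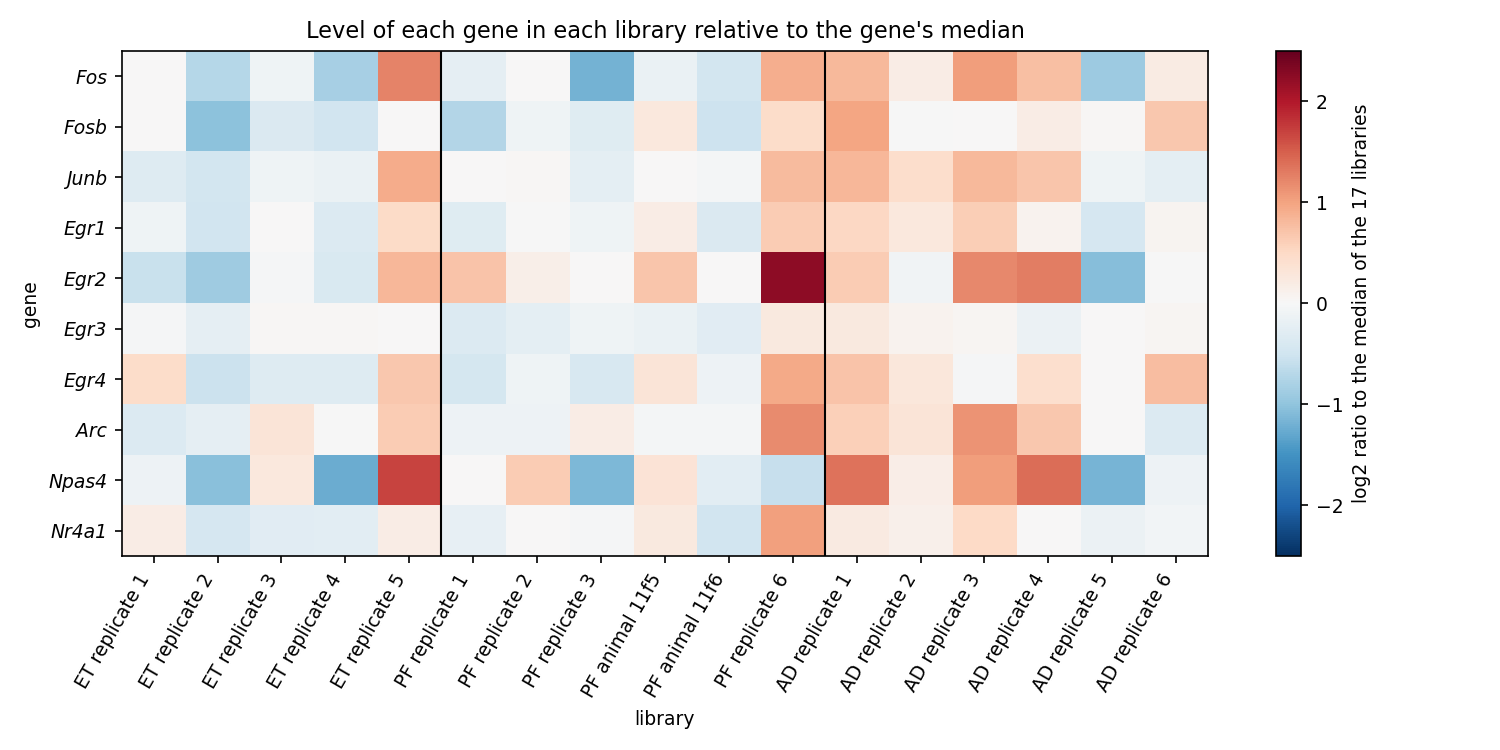
Level of each immediate early gene in each of the 17 libraries, as the log2 ratio to that gene's median (colour, red above and blue below); black lines separate the ET, PF and AD litters. The columns of ET replicate 5, PF replicate 6 and AD replicates 1 and 3 are red for nearly every gene, and the *Npas4* cell of PF replicate 6 is blue.

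Over the 17 libraries, Pearson's r of the log2 levels was above 0 for all 45 pairs of members, with a median of 0.66 and a range of 0.12 to 0.88. The median over all 132511060 pairs of genes tested was -0.003, and 2.63% of those pairs were at or above 0.66. Taking deviations from the mean of each litter gave a median of 0.66 for the members again, with a range of -0.03 to 0.87, where 3.29% of all pairs reached that median. Of the 45 pairs, 33 had a permutation p-value of r below 0.05 after Benjamini-Hochberg adjustment over the 45, and 27 by Spearman's rho. The points of a pair share library, depth and animal.

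*Egr1* followed the others most closely, with r = 0.95 between its level and the mean of the other 9, then *Fos* at 0.89 and *Junb* at 0.88. *Egr3* and *Npas4* followed them least, at 0.59 and 0.60. *Fos* and its partner *Junb* had r = 0.88 and rho = 0.76 (permutation p-values 1e-05, the smallest the permutations allow, and 0.0007; adjusted 0.00015 and 0.00463), and r = 0.86 without the 2 animals farthest from the median *Fos* level. *Fosb* did not go most closely with *Junb* (r = 0.53, rho = 0.49; permutation p-values 0.0291 and 0.0474, adjusted 0.041 and 0.0646; r = 0.29 without the 2 farthest animals) but with *Egr4* (r = 0.86, rho = 0.90; p-values 1e-05 and 1e-05, adjusted 0.00015 and 0.000225; r = 0.86 without the 2 farthest). *Junb* and *Arc*, a transcription factor and a synaptic effector, had r = 0.88 and rho = 0.74 (permutation p-values 1e-05 and 0.00099, adjusted 0.00015 and 0.00557), and 0.90 without the 2 farthest.

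**Figure D4:**
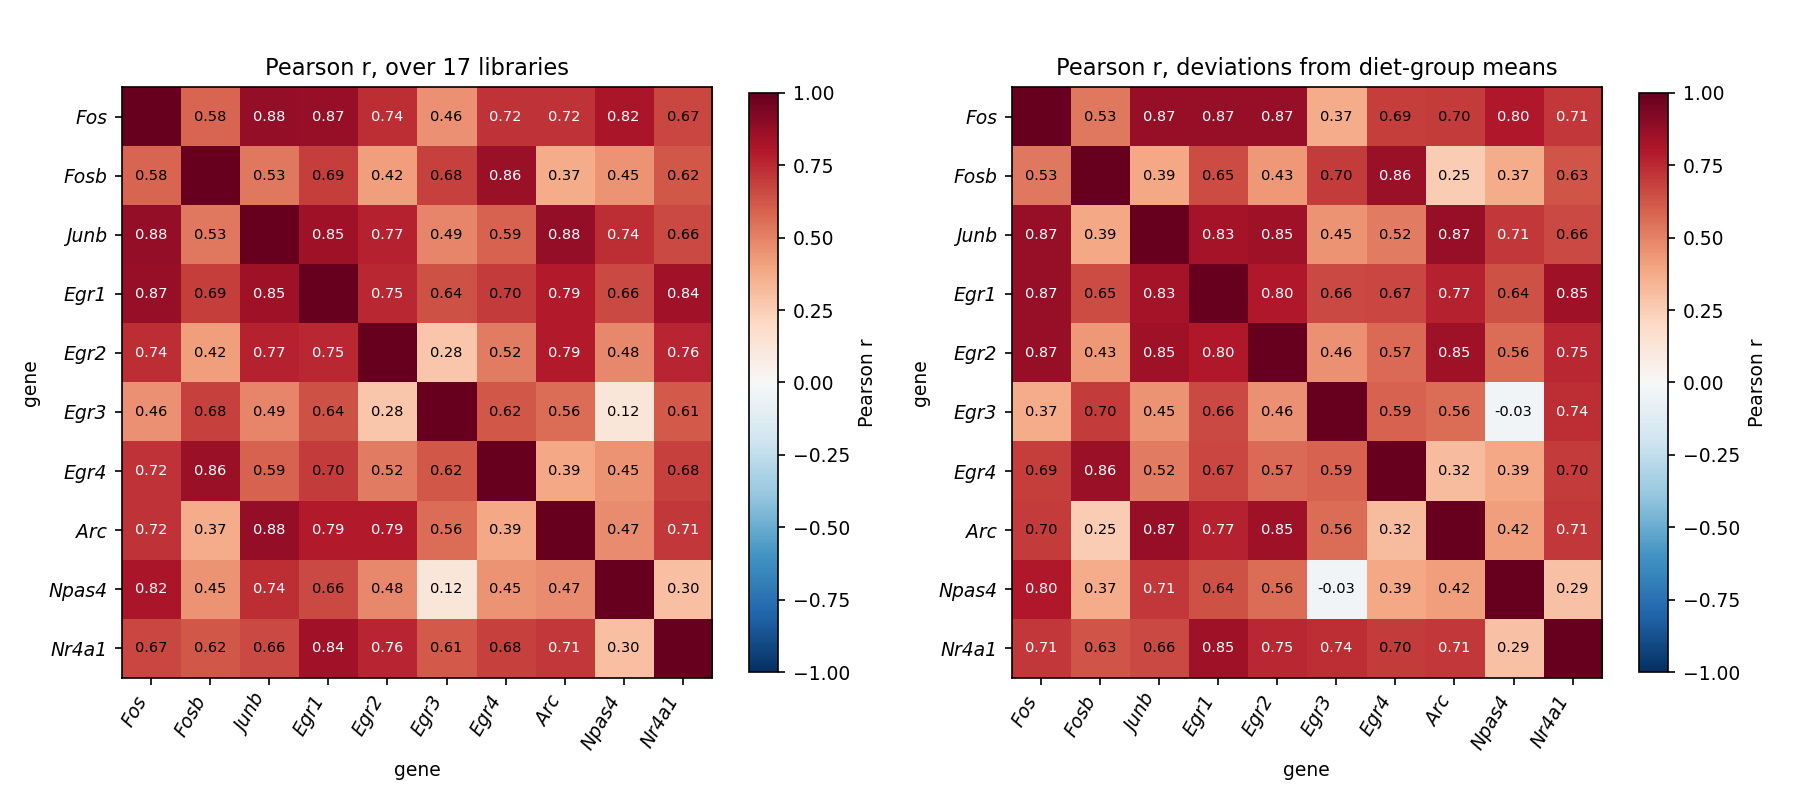
Pearson's r between the log2 levels of each pair of immediate early genes over 17 libraries (left) and after taking deviations from the mean of each diet group (right); colour and number give r. All 45 pairs on the left are above 0, and the *Npas4* and *Egr3* rows hold the palest cells, down to 0.12 on the left and -0.03 on the right.

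*Npas4* parted from all the other members in 1 animal, and other members parted from each other elsewhere. In PF replicate 6 the other 9 members were each among the highest 5 of the 17 libraries, *Arc* at 2060, *Nr4a1* at 907 and *Egr2* at 127, and *Npas4* was at 50.4, among the lowest 5. The 9 pairs with *Npas4* had a median r of 0.47 over all 17 libraries, beside 0.68 for the other 36 pairs, and 0.67 without that animal, beside 0.63. *Npas4* with *Fos* had r = 0.82 and rho = 0.75 (permutation p-values 6e-05 and 0.00072; adjusted 0.000386 and 0.00463; r = 0.74 without the 2 farthest animals), and r = 0.94 without PF replicate 6. *Npas4* with *Arc* had r = 0.47 and rho = 0.38 (permutation p-values 0.0583 and 0.137, adjusted 0.0729 and 0.162), with r = 0.67 without the 2 animals farthest from the median *Arc* level and 0.67 without PF replicate 6. Leaving out that animal was chosen after its values were seen. In AD replicate 3, where *Arc* was as high (1990), *Npas4* was at 154, above the median. *Npas4* with *Egr3* had r = 0.12 over all libraries and 0.22 without PF replicate 6. In AD replicate 6 *Arc* was the lowest of the 17 at 716, while *Egr4* at 115 and *Fosb* at 68.2 were above their medians.

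**Figure D5:**
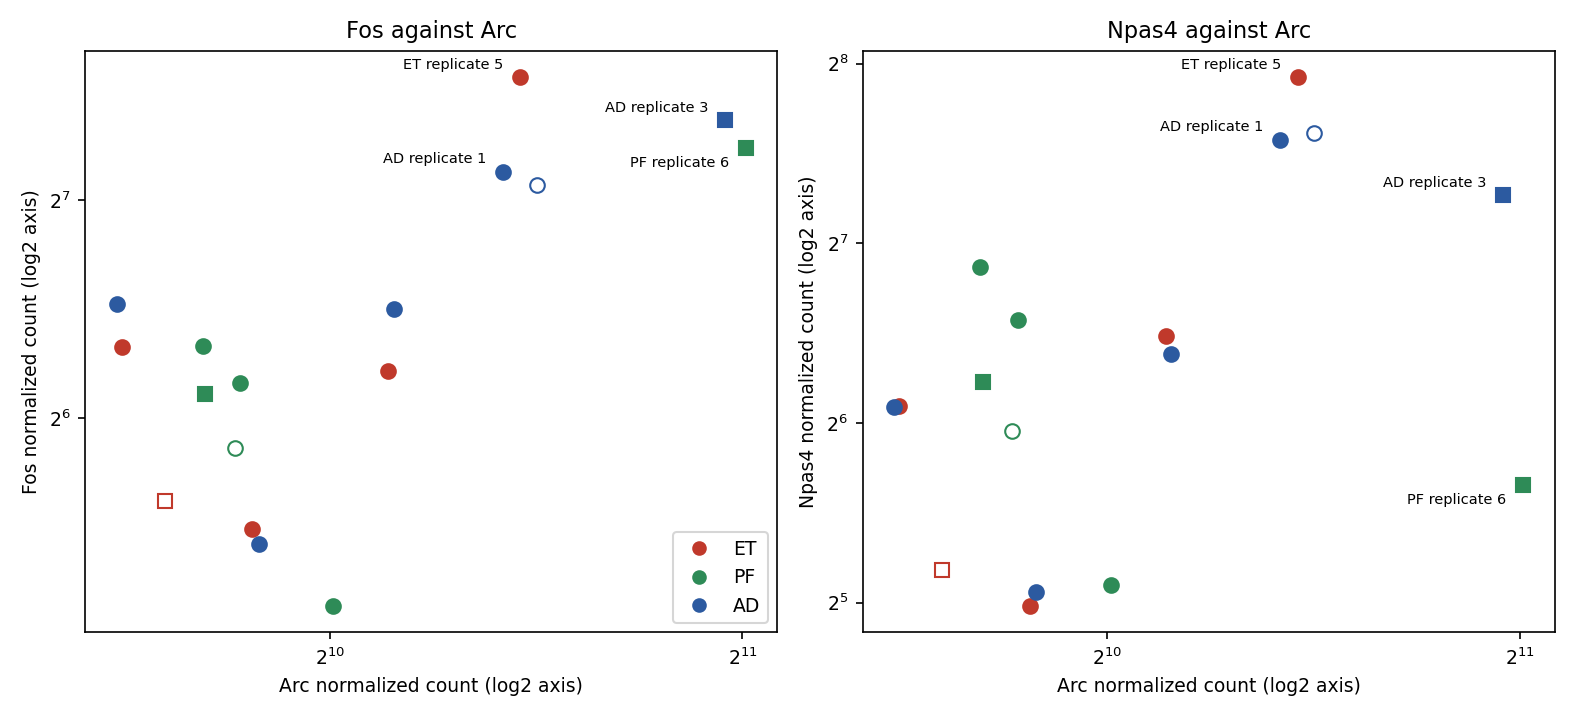
Normalized counts of *Fos* (left) and *Npas4* (right) against *Arc*, on log2 axes, for 17 animals coloured by diet; squares are right hippocampi and open symbols the 3 libraries rich in choroid plexus transcripts. PF replicate 6, with the highest *Arc* at 2060, lies with the high animals for *Fos* at 151 and with the low ones for *Npas4* at 50.4.

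Other genes of the same pathway, in lists made by function, were set beside the members. Of 32 further genes with rapid induction, 30 were tested between ET and PF and none passed, beside 5.46% of all genes. Before adjustment 3 were below 0.05, all lower in ET, beside 14.4% of all genes. These were *Ccn2*, a matricellular protein (log2 difference -0.88 ± 0.285, edgeR adjusted p-value 0.129), the clock gene *Per1* (-0.32 ± 0.111, adjusted 0.166) and the kinase *Sik1*, which restrains CREB coactivators (-0.45 ± 0.171, adjusted 0.216). *Ccn2* passed by DESeq2, with an adjusted p-value of 0.038. Between ET and AD, 27 of the 30 were lower in ET, beside 7727 of all 15700 genes, and 3 of them were below 0.05 before adjustment, beside 4.57% of genes. None passed, where 0.0382% of genes did. Some of the 30 moved with the members between animals, so their common sign is not 30 separate observations. Between PF and AD, 4 were lower and 1 higher in PF at an unadjusted p-value below 0.05, beside 17.3% of genes, and none passed, where 6.19% did.

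Of 16 slower activity-induced genes, 1 passed between ET and PF, a share near the 5.46% of all genes that passed. *Inhba*, which encodes the subunit that activin A is made of, was at 126, 107, 132, 131 and 113 in ET and from 74.3 to 102 in PF, with no overlap, and was higher in ET by 0.42 ± 0.101 on the log2 scale (edgeR adjusted p-value 0.0285). The call was lost in 6 of the 11 fits that left out 1 animal and without the 3 libraries rich in choroid plexus transcripts (adjusted 0.058). It was also lost in left hippocampi only (0.054) and under the replicate block (0.44). *Inhba* kept the same sign throughout. AD animals ran from 92.0 to 145, with a log2 difference of -0.38 ± 0.12 for PF against AD (adjusted 0.0891, and 0.038 without AD replicate 5) and 0.04 ± 0.116 for ET against AD. *Nfil3*, a repressor of clock genes, was at 0.24 ± 0.0932 between ET and PF (adjusted 0.227), and the synaptic pentraxin *Nptx2* at 0.13 ± 0.0854. Between PF and AD none of the 16 passed, where 6.19% of genes did, and 4 were below 0.05 before adjustment, all lower in PF, beside 17.3% of genes. *Nptx2* was there at -0.23 ± 0.0671 (edgeR adjusted p-value 0.0598), and it passed by DESeq2 (adjusted 0.03), in left hippocampi only (0.037) and without PF replicate 3 (0.046), PF replicate 6 (0.028) or AD replicate 3 (0.032). Of 26 upstream regulators (CREB, SRF, MEF2 and their kinases and coactivators) none passed in any diet comparison. The 3 with the smallest p-values between ET and PF were the SRF partner *Elk1* at 0.12 ± 0.0604, the kinase *Rps6ka2* at -0.11 ± 0.0624 and the EGR corepressor *Nab2* at -0.13 ± 0.0806. No gene of these lists passed for sex, side or sex by diet.

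Across animals, some genes of these lists followed the members. Pearson's r to the mean standardized level of the members had a median of 0.44 over 31 rapid genes, of which 12 (38.7%) exceeded 0.5. It was 0.32 over the 16 slower genes, with 3 (18.8%) above 0.5, 0.07 over the 26 upstream regulators, with 2 (7.69%), and -0.01 over the other 16270 genes, with 854 (5.25%). *Ier2*, *Trib1*, *Dusp1* and *Klf2* led the rapid genes, at 0.87, 0.79, 0.76 and 0.76. *Jun*, which pairs with the Fos proteins, and *Nr4a3*, a relative of *Nr4a1*, were at 0.05 and 0.04. *Bdnf*, a target of *Npas4*, was at -0.23 to this mean of all members, and its relation to *Npas4* alone was not tested.

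Among all genes outside the 10, those most like the members were *Ier2* (r = 0.87), *Mex3d* (0.83), *Gpr3* (0.82), *Mcm6* (0.80), *Trib1* (0.79), *Cep83os* (0.79), *Tlnrd1* (0.78), *Irf2bpl* (0.77), *Dusp1* (0.76) and *Ttyh3* (0.76). *Ier2*, *Gpr3*, *Trib1* and *Dusp1* were already in the lists of activity-induced genes. The 5 most opposed were *Col11a1* (-0.79), *Thoc5* (-0.76), *Ribc1* (-0.76), *Fcgr1a* (-0.75) and *Slc46a1* (-0.73). These values were picked as the extremes of 16270 and are a description of 17 animals.

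Marker sums of neighbouring tissues, which the dissection can carry, and of cell types of the hippocampus itself were set beside the members. The summed level of 10 striatal and cortical genes, all detected, ran from 164 to 445 CPM in ET, 163 to 324 CPM in PF and 179 to 404 CPM in AD. Cortical genes carried most of it, with medians of 73.5 CPM for *Tbr1*, 47.2 CPM for *Lamp5* and 37.1 CPM for *Cux2*, and the striatal *Drd1* and *Drd2* had medians of 9.84 and 2.96 CPM. The sum went with the mean level of the members (r = 0.53, rho = 0.67), and more closely without the 2 libraries farthest from the median sum (r = 0.73). Within litters r was 0.52. Endothelial genes had r = 0.30 and 0.57 without the 2 farthest libraries, and CA1 genes had 0.43 and 0.37. These values were -0.36 and -0.47 for choroid plexus genes, -0.31 and -0.44 for CA3 genes, -0.13 and -0.25 for dentate granule genes and -0.33 and -0.16 for thalamic genes. They were 0.43 and 0.20 for interneuron genes, 0.16 and 0.10 for general neuronal genes, 0.08 and 0.30 for heat shock genes and 0.26 and 0.10 for the fragment total. Astrocyte, oligodendrocyte and microglial sums were at -0.05, 0.10 and -0.11 over all libraries. By group, the oligodendrocyte sum ran from 20300 to 26000 CPM in ET, 14800 to 20300 CPM in PF and 17300 to 24400 CPM in AD. For the interneuron sum these ranges were 425 to 598, 500 to 544 and 539 to 582 CPM. The part of such differences in the diet comparisons was not tested. As deviations from a line on the striatal and cortical sum, the 45 pairs had a median r of 0.58, and on the choroid plexus sum 0.63, beside 0.66 without such a line. Whether the transcripts of the striatal and cortical list came from neighbouring tissue or from cells of the hippocampus was not tested. Beyond these values, the part of neighbouring tissue in the covariation was not tested either.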

How the data were processed

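RNA from 17 rat hippocampi was sequenced with a stranded mRNA kit. Per the labels and the study's methods, the authors trimmed reads with fastp, aligned them to mRatBN7.2 with Bowtie2 2.4.2, counted them with featureCounts 2.0.1 and averaged 3 technical replicates, so the deposited values are estimated counts that need not be whole. They were rounded here. All columns were used. The columns of 2 PF animals (11f5 and 11f6) name the group and not the replicate.

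Genes were kept by filterByExpr, scaled by TMM and tested with edgeR 4.0.16 (quasi-likelihood test, Benjamini-Hochberg adjustment over all genes tested) under R 4.3.3, and DESeq2 1.42.0 was an alternative. A gene passed at an adjusted p-value below 0.05. At the threshold of the study (adjusted p-value below 0.01, absolute log2 fold change above 1.5) no member passed either. Standard errors were derived from the F statistics. Sex was compared in ET and PF with diet as covariate, and side over all 17 with diet as covariate. Where sex was a covariate it was taken from the labels, also for AD replicates 1 and 2, which go against them. Correlations used log2(CPM + 1) and 100000 two-sided permutations. The tests were checked on simulated counts. The members and lists were chosen with earlier results of these data known. Named genes were the 10 members, the genes of 3 functional lists that passed in any comparison or had the 3 smallest p-values between ET and PF, and the 10 most and 5 least correlated genes; *Klf2*, *Jun*, *Nr4a3* and *Bdnf* were added after their values were seen. Animals of a group are littermates, so p-values measure the spread within litters. No 2 libraries of a group agreed within sampling noise. Counting error covers fragments only.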

Additional observations from a re-analysis of the deposited data

Results flagged for a closer look

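Dixon's test was applied to each of the 10 immediate early genes in each litter, 30 groups in all, of which chance alone would flag about 1 in 20. It marked 9 animals' values as far from those of their littermates, and the genes move together, so these are not separate events. In ET, replicate 5 stood out for *Fos* at a normalized count of 189, *Junb* at 405 and *Npas4* at 243, and replicate 2 stood out at the low end for *Egr3* at 996. In PF, replicate 6 stood out for *Junb* at 366, *Egr2* at 127, *Egr3* at 1380, *Arc* at 2060 and *Nr4a1* at 907. No AD animal was marked for any member.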

How the results depend on the processing

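The count of members passing was 0 in all 6 comparisons under DESeq2, median-of-ratios scaling, no filter, summed technical replicates, the threshold of the study and without the 3 libraries rich in choroid plexus transcripts, and in the diet comparisons also with left hippocampi only, sex as a covariate, 1 fit of the 3 groups and the replicate block. The 1 exception among fits leaving out an animal was PF against AD, where the count ran from 0 to 1 (*Egr3* without PF replicate 6). With an animal left out, members below 0.05 before adjustment numbered 0 to 1 in ET against PF (beside 12.2% to 18.1% of genes over those fits), 1 to 7 in ET against AD (3.04% to 7.62%), 0 to 6 in PF against AD (14.8% to 20.5%), 0 to 1 for sex (1.43% to 7.12%), 0 to 3 for side (2.25% to 6.58%) and 0 to 2 for sex by diet (1.09% to 14.2%). By DESeq2 they were *Egr2* in ET against PF (beside 13% of genes), *Fosb* in ET against AD (3.89%) and *Egr3* in PF against AD (15.2%), and none for sex, side and sex by diet.

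Signs of small differences changed. Between ET and PF these log2 differences reversed: without the 3 libraries *Junb* 0.0149 and *Egr4* 0.0295; in left hippocampi *Junb* 0.238, *Egr1* 0.101, *Egr4* 0.245, *Arc* 0.205 and *Nr4a1* 0.00822; under the replicate block *Egr4* 0.208 and *Npas4* -0.139, with 0 members passing. Leaving out each animal gave ranges of -0.314 to 0.479 for *Fos*, -0.387 to 0.118 for *Junb*, -0.264 to 0.0557 for *Egr1*, -0.245 to 0.199 for *Egr4*, -0.296 to 0.151 for *Arc* and -0.341 to 0.608 for *Npas4*. *Npas4* between ET and AD was 0.0246 without the 3 libraries, and *Inhba* there ranged from -0.0274 to 0.0987 with an animal left out. Between PF and AD, left hippocampi gave *Egr2* -0.105 and *Nr4a1* -0.0724, and leaving out an animal gave -0.175 to 0.56 for *Egr2* and -0.193 to 0.153 for *Nr4a1*. The causes were not tested.

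*Inhba* kept its sign between ET and PF under every alternative but missed the threshold without the 3 libraries (adjusted p-value 0.058), in left hippocampi (0.054), under the replicate block (0.44) and at the threshold of the study (log2 difference 0.42), and without any 1 of ET replicates 1, 3 and 4, PF replicate 1 and PF animals 11f5 and 11f6. The replicate block changed no other call. Replicate numbers name different animals, and deviations of same-numbered animals had a mean correlation of 0.2 in ET and PF (3 pairs, -0.085 to 0.62), -0.11 in ET and AD (5 pairs) and 0.069 in PF and AD (4 pairs), so they were not taken as pairs. The median r of the 45 pairs stayed between 0.571 and 0.697. Leaving out both AD libraries that go against their sex label, chosen after seeing the data, left the counts at 0 and the median r at 0.647. *Egr2* had the lowest count of any member, at 11.7 in a library.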
